A study of Mus musculus with 6 samples.

Results

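The 31 genes described here code for the enzymes that build cholesterol and fatty acids and for the proteins that switch those enzymes on and off. They were listed by pathway and taken from the deposited gene table by symbol, with no threshold on a measured value, and all 31 were found among its 24532 genes. They fall into 5 regulators (*Srebf1*, *Srebf2*, *Scap*, *Insig1*, *Insig2*) and 26 enzymes. The enzymes comprise 7 genes of the mevalonate steps, 9 from squalene to cholesterol, 3 of fatty acid synthesis, 6 of elongation and desaturation, and the phosphatidate phosphatase *Lpin1*. All 31 had enough reads to be tested, among 13801 genes that did. *Srebf2* codes for a transcription factor of sterol synthesis, and *Scap* for the protein that carries it to the site of its activation. Transcripts of both rose in the libraries labelled *Sirt6* KO and passed the test at an adjusted p under 0.05. None of the 26 enzymes passed in either direction, where 16.2% of all genes tested did. With a trend over base composition removed, neither *Srebf2* nor *Scap* passed and the enzyme *Pmvk* did, where 7.01% of all genes passed. Of the 6 fits that each left out 1 library, *Srebf2* passed in 3 and *Scap* in 1.

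RNA was sequenced from gastrocnemius (GAS), a calf muscle of mostly fast fibers, of C57BL/6 mice at 20 weeks of age, which the methods describe as males. There were 3 mice labelled WT, which carry loxP-flanked *Sirt6* alleles (*Sirt6* flox/flox) and no Cre, and 3 labelled *Sirt6* KO, which carry the same alleles together with *Myl1-Cre*. Both groups thus share the flox alleles, and the Cre acts mainly in fast fibers after they stop dividing, from embryonic life on, so that other cells of the muscle keep the gene. Which *Sirt6* flox line was used differs between the methods and the reporting summary. Each library came from 1 animal, and the p-values weigh the difference between the groups against the spread between animals of a group.

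Cholesterol is made from acetyl-CoA through mevalonate, farnesyl diphosphate, squalene and lanosterol, and fatty acids are made from the same precursor through malonyl-CoA. Genes of both routes are switched on by the sterol regulatory element-binding proteins (SREBPs): the protein made from *Srebf2* acts mostly on sterol genes, and the main form made from *Srebf1* mostly on fatty acid genes. Both precursors sit in the endoplasmic reticulum bound to SCAP, which escorts them to the Golgi for cleavage when sterols are low, and INSIG1 and INSIG2 hold SCAP back when sterols are high. Because SREBPs are activated by cleavage, transcript levels do not report their activity. SIRT6, a chromatin deacetylase, is known in liver as a repressor of SREBP-driven genes.

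The sequences before the starts of 4 genes are shown, since *Srebf2* and *Scap* are the members that passed the test, *Srebf1* is the other SREBP gene, and *Hmgcs1* is the member whose window holds a sterol regulatory element as searched. They are RefSeq promoter windows of build GRCm38.p6, given on the strand of the gene, and read up to the base before the start. The *Srebf2* stretch stops earlier, before an exon annotated at an upstream start. They lie at chr15:82147019-82147180 for *Srebf2* (plus strand), chr9:110333038-110333287 for *Scap* (plus), chr11:60210472-60210721 for *Srebf1* (minus, at the most downstream of its starts and inside the gene) and chr13:119690101-119690350 for *Hmgcs1* (plus). Capitals mark matches on either strand to TCACNCCAC (a sterol regulatory element), CCAAT (the box bound by NF-Y), CACGTG (an E-box) and GGGCGG (a GC box).
Srebf2: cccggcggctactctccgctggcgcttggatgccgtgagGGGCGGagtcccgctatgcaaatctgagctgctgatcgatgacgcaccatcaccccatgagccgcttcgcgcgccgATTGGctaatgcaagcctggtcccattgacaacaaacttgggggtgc
Scap: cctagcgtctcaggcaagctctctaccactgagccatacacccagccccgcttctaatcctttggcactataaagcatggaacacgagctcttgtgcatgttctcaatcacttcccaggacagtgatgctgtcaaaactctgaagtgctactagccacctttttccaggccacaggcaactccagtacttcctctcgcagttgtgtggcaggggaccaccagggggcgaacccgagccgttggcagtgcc
Srebf1: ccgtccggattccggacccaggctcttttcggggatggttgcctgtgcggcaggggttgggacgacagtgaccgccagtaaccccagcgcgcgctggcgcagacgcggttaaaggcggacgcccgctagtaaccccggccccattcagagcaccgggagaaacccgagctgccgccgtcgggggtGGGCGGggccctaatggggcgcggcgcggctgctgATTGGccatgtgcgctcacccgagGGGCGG
Hmgcs1: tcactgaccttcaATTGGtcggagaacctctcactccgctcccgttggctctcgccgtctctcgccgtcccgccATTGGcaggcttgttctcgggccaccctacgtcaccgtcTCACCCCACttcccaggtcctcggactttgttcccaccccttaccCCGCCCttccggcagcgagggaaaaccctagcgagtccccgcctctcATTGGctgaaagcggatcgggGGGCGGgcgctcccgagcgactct
The *Srebf2* stretch holds 1 CCAAT box and 1 GC box, the *Srebf1* stretch 1 CCAAT box and 2 GC boxes, and the *Scap* stretch none of the 4 motifs. RefSeq windows of *Scap* do hold an E-box and a GC box, outside the stretch shown. The *Hmgcs1* stretch holds 1 sterol regulatory element, 3 CCAAT boxes and 2 GC boxes. RefSeq windows, from 250 bases before to 50 bases after each start, were at hand for 26 of the 31 genes, in 35 windows. TCACNCCAC was in 2.86% of these windows and in 1.24% of all 32851 windows of the same length, CCAAT in 60% against 37.4%, CACGTG in 20% against 7.15%, and GGGCGG in 71.4% against 35.7%. None of the 4 motifs contains another, and a match describes the letters in a window and not a bound site.

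*Sirt6* itself went against the labels, with more transcript in the KO libraries than in the WT ones. Its level, in counts scaled to library size (CPM), was 2.77, 2.23 and 2.88 in WT 1 to 3 and 7.81, 7.44 and 6.68 in KO 1 to 3 (log2 fold change 1.48, SE 0.173, adjusted p = 0.0113 by edgeR's quasi-likelihood test). Counts per gene do not separate deleted exons from the remaining ones. The paper reports loss of SIRT6 protein in skeletal muscle of the KO line by Western blot, and transcript counts do not measure protein. The groups are therefore called by their labels throughout, and every direction below is that of libraries so labelled. Library totals ran from 44845763 to 63016899 counts, and 1 count was worth 0.0165 to 0.0212 CPM. The 5 markers of muscle fibers summed to 115183 CPM in WT 1, 121928 in WT 2 and 191421 in WT 3, and to 179719, 180460 and 205626 CPM in KO 1 to 3, so that WT 3 was with the KO libraries. WT 3 stood apart from WT 1 and WT 2 in the summed CPM of 8 slow-fiber markers. That sum was 7302 in WT 1, 8166 in WT 2 and 1389 in WT 3, against 1672 to 4793 in the libraries labelled KO. The largest part of each sum was *Myh2*, the type IIa myosin, at 3732, 5223 and 1256 CPM in WT 1 to 3 and 1313, 2694 and 1571 CPM in KO 1 to 3. *Myh7*, the type I myosin, was at 1138, 958 and 21.7 CPM in WT 1 to 3 and at 100, 720 and 163 CPM in KO 1 to 3.

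Of the 31 genes, 2 passed the test (adjusted p under 0.05 by edgeR's quasi-likelihood test, adjusted over all genes tested), both higher in the libraries labelled *Sirt6* KO. Over all genes tested the share was 16.2%, with 7.85% higher and 8.39% lower. At an unadjusted p under 0.05 there were 10 of the 31, 7 higher and 3 lower, where 35.3% of all genes reached it. The 3 libraries of one group all lay above the 3 of the other in 9 of the 31, 4 with the KO libraries above and 5 with them below, against 40% of all genes, 20.3% with KO above and 19.6% with KO below. Of the 31 fold changes, 18 were positive and 13 negative, with a median log2 fold change of 0.09 and a range from -1.11 to 0.73. The median size of the change, whatever its sign, was 0.33 for the 31 genes and 0.35 over all genes. The shares past the test (6.45%) and without overlap (29%) were below those over all genes. They rest on 2 and 9 genes, and the differences were not tested.

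**Figure D1:**
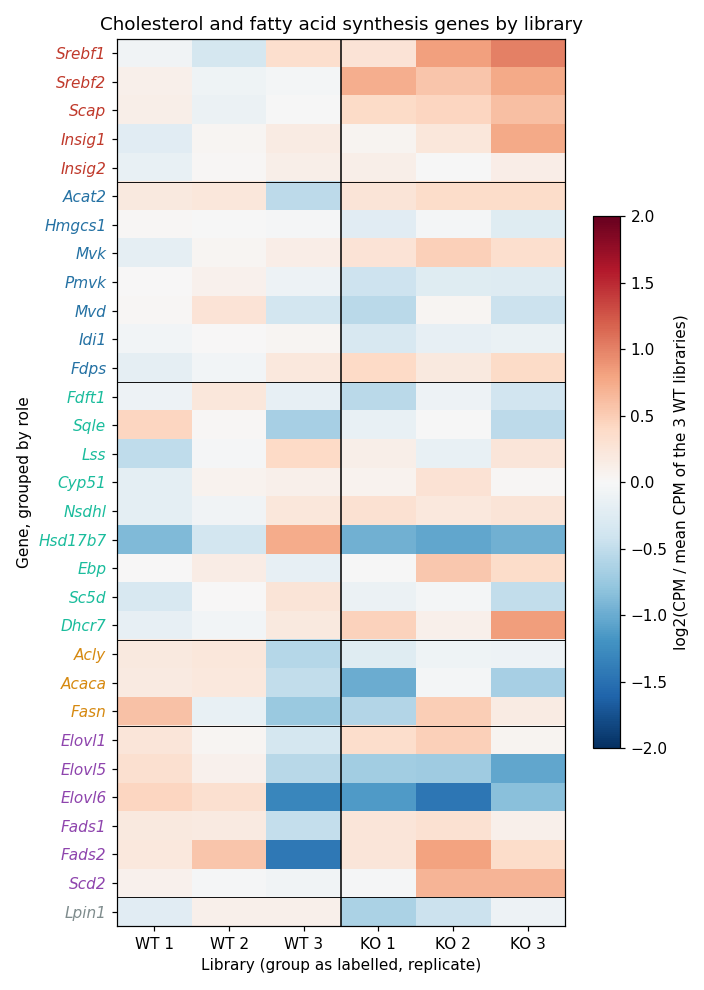
Each cell is 1 gene in 1 library, as the log2 ratio of its CPM to the mean CPM of the 3 WT libraries (red higher, blue lower), with genes grouped by role and the 3 libraries labelled Sirt6 KO to the right of the line. The top rows, the regulators, are red in most KO libraries, whereas the enzyme rows hold both colors and WT 3 is often unlike WT 1 and WT 2.

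All 5 regulators had a positive fold change, with a median of 0.48, where 6680 of the 13801 genes tested were positive. Of the 5, 2 passed the test, where 16.2% of all genes did, 7.85% in the higher direction. *Srebf2* was at 13.0, 11.4 and 11.8 CPM in WT 1 to 3, and at 20.0, 17.8 and 20.5 CPM in KO 1 to 3. Every KO library was thus above every WT library. The means were 12.1 ± 0.832 and 19.4 ± 1.44 CPM (SD, n = 3 each). The log2 fold change was 0.68 (SE 0.115, adjusted p = 0.0161 by edgeR). *Srebf2* is at chr15:82147269-82205379 in the gene table.

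*Scap*, at chr9:110333288-110384949, was at 20.0, 16.9 and 18.3 CPM in WT 1 to 3 and at 24.0, 24.9 and 27.9 CPM in KO 1 to 3. The groups did not overlap for this gene either, and the gap between WT 1 and KO 1 was the narrowest between them. The log2 fold change was 0.48 (SE 0.116, adjusted p = 0.0355 by edgeR). For both genes the two-sided exact permutation test on the level gave p = 0.1, which is the smallest that 3 libraries against 3 can give.

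*Srebf1*, at chr11:60199084-60224186, was at 26.0, 21.4 and 34.2 CPM in WT 1 to 3 and at 33.0, 47.8 and 54.5 CPM in KO 1 to 3. WT 3 was above KO 1, so the groups overlapped. Its log2 fold change of 0.73 was the most positive of the 31 (SE 0.23), and it missed the threshold (adjusted p = 0.0699 by edgeR). Per gene, the counts do not separate the 2 forms of the protein that different starts give, and 109 bases of its exons lie opposite to exons of *Rai1*.

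The 2 genes whose products hold SCAP in the endoplasmic reticulum did not pass the test. *Insig1*, itself a known target of SREBPs, was at 9.66 to 12.7 CPM in WT and at 11.8, 13.3 and 19.2 CPM in KO 1 to 3 (log2 fold change 0.38, SE 0.206, adjusted p = 0.226 by edgeR), with KO 3 above the other libraries. *Insig2* was at 63.7 to 76.8 CPM in WT and at 70.8 to 77.5 CPM in KO, and the 95% confidence interval of its log2 fold change ran from -0.18 to 0.34.

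The calls for *Srebf2* and *Scap* varied with the libraries and with a correction for base composition. Leaving out each library in turn kept the log2 fold change of *Srebf2* between 0.64 and 0.75. *Srebf2* was not called without WT 2 (adjusted p = 0.0617 by edgeR), KO 1 (0.0677) or KO 3 (0.0818). In those fits 1.78%, 0.0568% and 0.0921% of all genes were called. The log2 fold change of *Scap* stayed between 0.41 and 0.55, and it was called in 1 of these 6 fits, the one without WT 3. Over all 15 alternatives the adjusted p ran from 3.67e-05 to 0.0818 for *Srebf2*, from 0.00528 to 0.236 for *Scap* and from 0.0175 to 0.218 for *Srebf1*. *Srebf2* was called in 11 of the 15, *Scap* in 8 and *Srebf1* in 2, by DESeq2 and without WT 3. The share of all genes called was 25.6% by DESeq2, 16.5% with its size factors in edgeR, 10% without a filter on low counts, 18.5% with at least 10 counts in every library, 23.5% with an FPKM above 1, 19% by limma with either pseudocount, and 13.9% with the replicate number as a block. It was 3.15% without WT 1, 32.5% without WT 3 and 6.21% without KO 2.

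**Figure D2:**
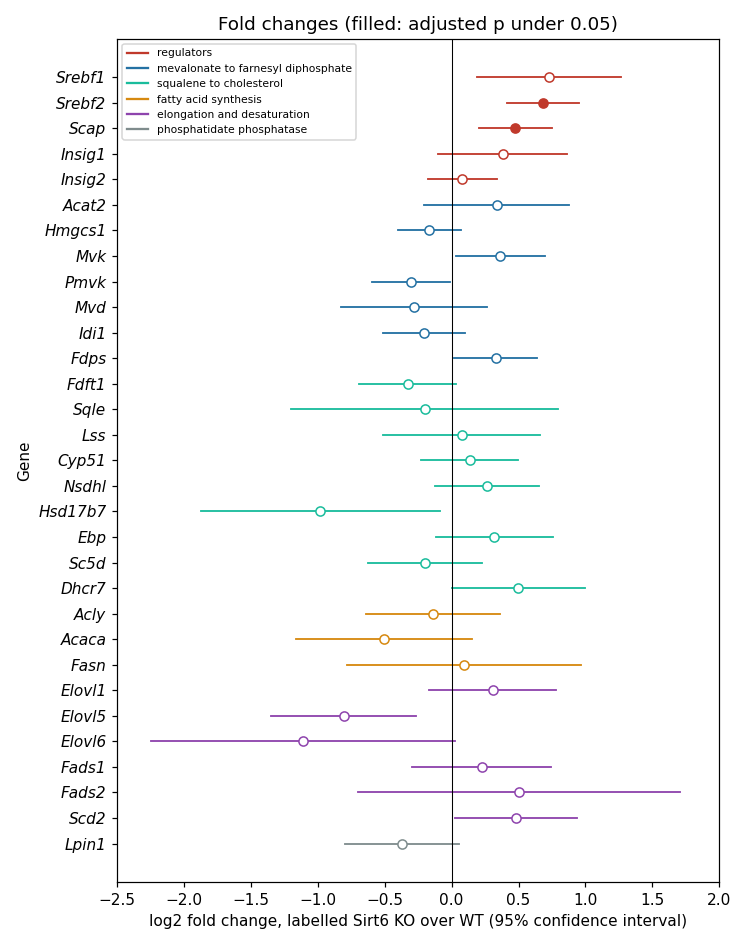
Log2 fold change of each of the 31 genes, libraries labelled Sirt6 KO over WT, with its unadjusted 95% confidence interval, colored by role. Filled points, Srebf2 and Scap, have an adjusted p under 0.05, and the intervals of Elovl6, Fads2 and Sqle are the widest.

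Fold changes moved with the base composition of transcripts. Over 13271 genes with a GC content, Spearman's rho between GC content and log2 fold change was 0.34, and over the 31 genes it was 0.50; genes are not independent replicates and both are given as descriptions. The 5 regulators had a median GC content of 57.9%, against 49.8% over all genes tested. When a trend over GC content was removed within each library, rho over all genes was -0.0059 and 7.01% of all genes were called. The log2 fold change of *Srebf2* was then 0.44 (adjusted p = 0.0582), that of *Scap* 0.22 (adjusted p = 0.236) and that of *Srebf1* 0.48 (adjusted p = 0.208), by edgeR.

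**Figure D3:**
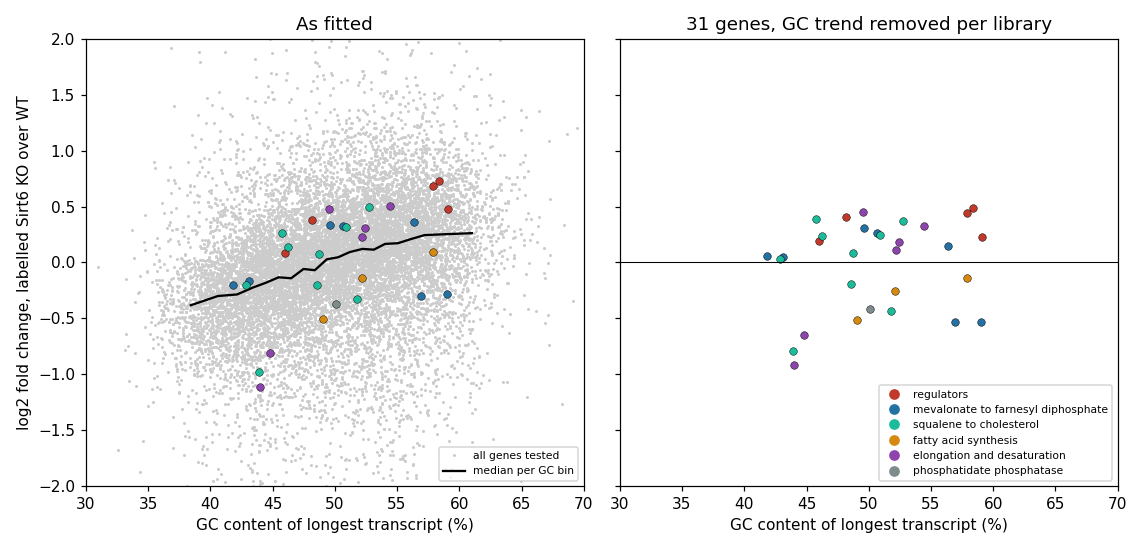
Left, log2 fold change (libraries labelled Sirt6 KO over WT) against GC content of the longest transcript for all genes tested (gray) and the 31 genes (colored by role), with the median per GC bin as a line; changes beyond 2 in size are not drawn. Right, the 31 genes with the GC trend removed within each library, where the 3 regulators of highest GC content lie between 0.22 and 0.48.

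The 7 genes of the mevalonate steps lead from acetyl-CoA to farnesyl diphosphate. None of the 7 passed by edgeR, DESeq2 or limma, where 16.2%, 25.6% and 19% of all genes did. There were 3 with an unadjusted p under 0.05, which 35.3% of all genes reached. The median log2 fold change was -0.17, and in 5 of the 7 the groups did not overlap, 2 with KO above and 3 with KO below, where 40% of all genes showed no overlap (20.3% above and 19.6% below). The changes were small, between -0.30 and 0.36.

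*Mvk*, mevalonate kinase, was at 6.12, 7.17 and 7.59 CPM in WT 1 to 3 and at 8.41, 9.65 and 8.81 CPM in KO 1 to 3. Each KO library was above each WT library (log2 fold change 0.36, SE 0.143, adjusted p = 0.119 by edgeR). *Pmvk*, phosphomevalonate kinase, which acts on the product of the former, was at 10.6, 11.1 and 9.88 CPM in WT 1 to 3 and at 7.91, 8.93 and 8.79 CPM in KO 1 to 3. Here each KO library was below each WT library (log2 fold change -0.30, SE 0.124, adjusted p = 0.127 by edgeR). These 2 kinases of successive steps thus had fold changes of opposite sign, and neither passed the test. With the GC trend removed *Pmvk* was the one member called (log2 fold change -0.53, adjusted p = 0.0476, over a range of 0.0476 to 0.306 in the 15 alternatives).

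The other 5 mevalonate genes showed the same mixture. *Hmgcs1*, HMG-CoA synthase, was at 38.1 to 39.3 CPM in WT and at 32.7 to 37.7 CPM in KO, without overlap (log2 fold change -0.17, adjusted p = 0.273 by edgeR). *Idi1*, isopentenyl diphosphate isomerase, was also lower in every KO library, by a log2 fold change of -0.20, whereas *Acat2*, the cytosolic acetoacetyl-CoA thiolase, was higher in every KO library (0.34). The signs of *Hmgcs1* and *Idi1* turned with the GC trend removed, to 0.051 and 0.055. *Acat2* has the near-identical copy *Acat3*, which was counted separately, so reads could be split between them. *Fdps*, farnesyl diphosphate synthase, had a log2 fold change of 0.33 (unadjusted p = 0.0392, adjusted p = 0.123 by edgeR) and *Mvd*, mevalonate diphosphate decarboxylase, of -0.28 (adjusted p = 0.42 by edgeR), with overlapping groups in both.

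Of the 9 genes from squalene to cholesterol, none passed edgeR's test or limma, where 16.2% and 19% of all genes did. DESeq2, which called 25.6% of all genes, called *Hsd17b7* alone of the 9. The median log2 fold change was 0.07, with 5 positive and 4 negative. *Hsd17b7*, a ketosteroid reductase of the lanosterol branch, was at 6.94, 9.97 and 21.5 CPM in WT 1 to 3 and at 6.61, 6.27 and 6.61 CPM in KO 1 to 3. All KO libraries were below all WT libraries, but WT 1 was close to them and WT 3 was far above the rest. The log2 fold change was -0.98 (SE 0.381, unadjusted p = 0.035, adjusted p = 0.115 by edgeR), and it was -0.38 without WT 3.

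*Dhcr7*, which makes cholesterol from 7-dehydrocholesterol, had a log2 fold change of 0.50 (unadjusted p = 0.05, adjusted p = 0.141 by edgeR) and was at 11.1 CPM in KO 3 against 5.53 to 8.54 CPM in the other libraries. *Fdft1*, squalene synthase, had a log2 fold change of -0.33 and *Sc5d*, sterol C5-desaturase, of -0.20. *Ebp*, the sterol isomerase, had 0.32, *Nsdhl*, a sterol dehydrogenase, 0.26, *Cyp51*, lanosterol demethylase, 0.13, and *Lss*, lanosterol synthase, 0.07, and the groups overlapped in all of them. *Sqle*, squalene epoxidase, had 15 to 28 counts per library. The 95% confidence interval of its log2 fold change ran from -1.20 to 0.80, so a change of either sign within these bounds was not excluded. Exons of *Fdft1* share 774 bases with *Ctsb* on the opposite strand, and those of *Lss* and *Cyp51* share 381 and 166 bases with opposite-strand genes; whether the counting used strand is not given in the sources used here.

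None of the 3 genes of fatty acid synthesis passed by edgeR, DESeq2 or limma, where 16.2%, 25.6% and 19% of all genes did. None had an unadjusted p under 0.05 by edgeR, which 35.3% of all genes reached. *Fasn*, fatty acid synthase, was at 34.3, 20.5 and 13.7 CPM in WT 1 to 3 and at 15.2, 32.2 and 25.6 CPM in KO 1 to 3, so both groups spread over the same range. Its log2 fold change of 0.09 had a 95% confidence interval from -0.78 to 0.97. *Acaca*, acetyl-CoA carboxylase, was at 35.6, 36.2 and 22.2 CPM in WT 1 to 3 and at 15.7, 30.6 and 19.8 CPM in KO 1 to 3 (log2 fold change -0.51, SE 0.281, adjusted p = 0.239 by edgeR). *Acly*, ATP citrate lyase, had a log2 fold change of -0.14 with overlapping groups, and WT 3 was its lowest library, at 10.3 CPM. Without WT 3 it was called, at -0.36 (adjusted p = 0.0357, over a range of 0.0357 to 0.99 in the 15 alternatives).

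*Elovl5*, which elongates polyunsaturated fatty acids, came closest to the threshold among the enzymes. It was at 18.3, 15.5 and 9.96 CPM in WT 1 to 3 and at 9.01, 8.93 and 7.06 CPM in KO 1 to 3. Each KO library was below each WT library, but WT 3 was nearer to KO 1 than to WT 2. The means were 14.6 ± 4.23 and 8.33 ± 1.10 CPM (SD, n = 3 each). The log2 fold change was -0.81 (SE 0.231, unadjusted p = 0.00918, adjusted p = 0.0537 by edgeR). It was called by DESeq2, with the replicate number as a block and without WT 3, and over the 15 alternatives its adjusted p ran from 0.0073 to 0.175.

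The other 5 genes of elongation and desaturation did not pass by edgeR, DESeq2 or limma with all 6 libraries. Over all genes these tests called 16.2%, 25.6% and 19%. *Elovl6*, which elongates saturated fatty acids, was at 1.56 and 1.46 CPM in WT 1 and WT 2 but at 0.471 CPM in WT 3, within the 0.429 to 0.654 CPM of the KO libraries (log2 fold change -1.11, SE 0.486, adjusted p = 0.149 by edgeR), and it was called without WT 3 at -1.49 (adjusted p = 0.0154, over a range of 0.0154 to 0.368 in the 14 alternatives that kept the gene). *Scd2*, a stearoyl-CoA desaturase, was at 15.8 to 17.8 CPM in WT, at 16.3 CPM in KO 1 and at 26.6 and 26.8 CPM in KO 2 and KO 3 (log2 fold change 0.48, unadjusted p = 0.042, adjusted p = 0.128 by edgeR). The desaturases *Fads1* and *Fads2* had log2 fold changes of 0.23 and 0.50, the latter on 11 to 55 counts per library, and *Elovl1*, which elongates saturated and monounsaturated chains, had 0.31.

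*Lpin1*, which makes diacylglycerol from phosphatidate and also acts in the nucleus as a coregulator, was at 656, 827 and 822 CPM in WT 1 to 3 and at 494, 572 and 719 CPM in KO 1 to 3. KO 3 was above WT 1, so the groups overlapped (log2 fold change -0.37, SE 0.182, adjusted p = 0.192 by edgeR).

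**Figure D4:**
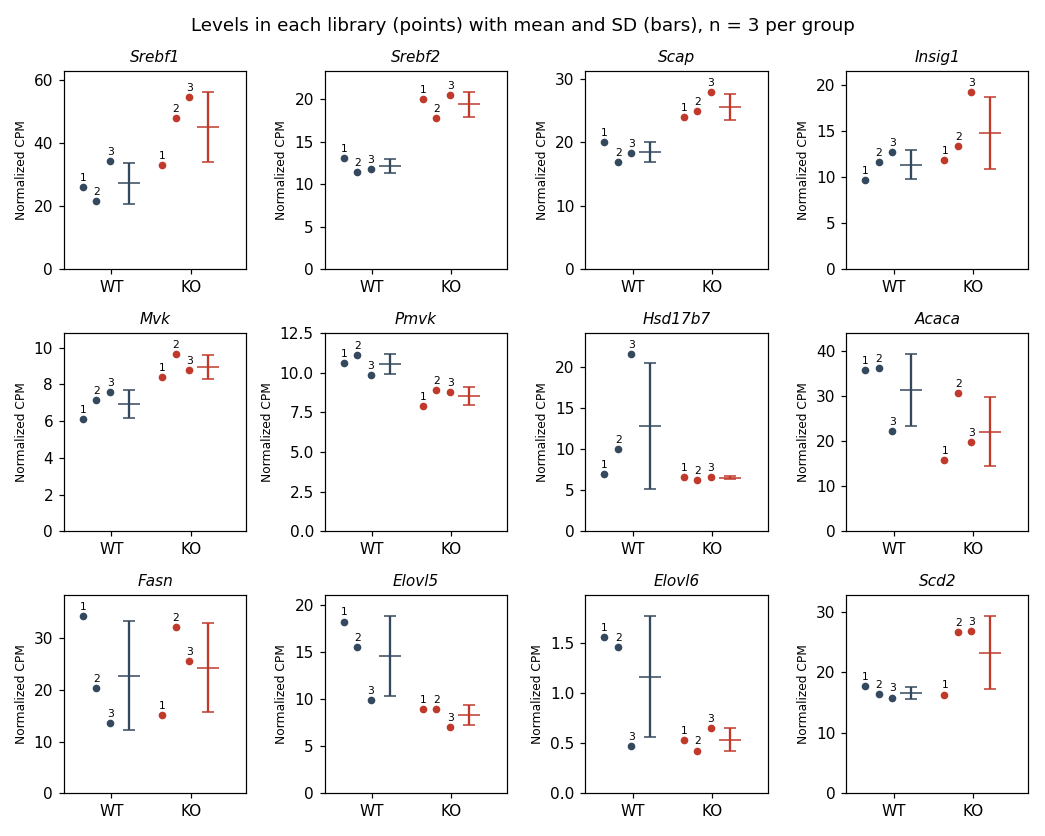
CPM in each library (points, numbered by replicate) with the group mean and SD (horizontal mark and bar, n = 3) for 12 of the 31 genes, WT in dark blue and libraries labelled Sirt6 KO in red, each axis starting at 0. The groups stand apart for Srebf2 and Scap, whereas WT 3 lies beside the KO libraries for Elovl5 and Elovl6 and far above them for Hsd17b7.

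On a scale that corrects for gene length (TPM), the levels of the 31 genes in the WT libraries spanned about 3 orders of magnitude. *Lpin1* was at 300.5 ± 29.5 TPM (SD, n = 3) and *Insig2* followed at 57.6 ± 2.77 TPM, with *Fdft1* at 43.0 ± 8.83 TPM and *Fdps* at 34.4 ± 0.950 TPM. The gap between *Insig2* and *Fdft1* was larger than either spread, and that between *Fdft1* and *Fdps* was smaller than the spread of *Fdft1*. At the low end, *Fads2* at 0.762 ± 0.468, *Elovl6* at 0.441 ± 0.257 and *Sqle* at 0.330 ± 0.151 TPM did not differ beyond their spread. Among the regulators, *Insig2* was at 57.6, *Srebf1* at 13.6 ± 2.16, *Scap* at 9.59 ± 1.59, *Insig1* at 9.32 ± 0.585 and *Srebf2* at 5.83 ± 0.938 TPM.

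Levels of the enzymes also differed between libraries of the same group. WT 3 was the lowest of the 6 libraries in 9 of the 31 genes, among them *Acly*, *Fasn*, *Fads1*, *Fads2* and *Scd2*, and KO 3 was the highest in 8, among them 5 regulators. The median log2 level of the fatty acid synthesis genes against the WT mean was 0.25 in WT 1, 0.24 in WT 2 and -0.52 in WT 3, and -0.48, 0.0018 and -0.059 in KO 1 to 3. That of the regulators was between -0.08 and 0.12 in the WT libraries and was 0.30, 0.44 and 0.76 in KO 1 to 3. Without WT 3, 7 of the 31 genes were called, where 32.5% of all genes were (16.7% higher and 15.7% lower): *Srebf1*, *Srebf2*, *Scap* and *Fdps* higher and *Acly*, *Elovl5* and *Elovl6* lower.

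Marker lists of other cells moved with these libraries too. In bulk muscle, fewer cells of a type and less RNA per cell cannot be told apart. Summed over 9 adipocyte markers, CPM was 191, 273 and 125 in WT 1 to 3 and 165, 317 and 198 in KO 1 to 3. None of the 9 passed the test by edgeR, where 16.2% of all genes did. Most of each sum was *Fabp4*, at 140, 204 and 119 CPM in WT 1 to 3 and 147, 175 and 137 CPM in KO 1 to 3. *Adipoq*, the adipokine that defines adipocytes, was at 7.96, 9.25 and 0.768 CPM in WT 1 to 3 and at 4.17, 19.0 and 8.33 CPM in KO 1 to 3. Schwann cells make much cholesterol for myelin. Summed over 10 of their markers, CPM was 57.0, 77.3 and 28.7 in WT and 27.0, 39.7 and 38.1 in KO. The largest part of each sum was *Pmp22*, at 32.5, 40.9 and 14.7 CPM in WT 1 to 3 and 15.2, 19.2 and 14.7 CPM in KO 1 to 3. Of the 10, 1 passed the test by edgeR, in the lower direction, where 16.2% of all genes passed. The fold change was negative in 9 and positive in 1, *Sox10* (log2 fold change 1.64, adjusted p = 0.125 by edgeR), on 3 to 29 counts per library. In WT 1 to 3 the summed CPM of 4 erythroid markers was 294, 289 and 45.8. It was 212, 239 and 129 for 4 endothelial markers and 864, 669 and 468 for 5 fibroblast markers. For 6 macrophage markers it was 60.9, 30.9 and 35.8. In KO 1 to 3 the sums were 109, 178 and 79.4 (erythroid) and 146, 151 and 148 (endothelial). They were 571, 547 and 576 for the fibroblast list and 36.1, 39.6 and 44.2 for the macrophage list. The erythroid, endothelial, fibroblast, slow-fiber, adipocyte and Schwann cell lists were each lower in WT 3 than in the other WT libraries, as were *Acaca*, *Acly*, *Fasn*, *Elovl5* and *Elovl6*. The part of these cells in the levels of the 31 genes was not tested.

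**Figure D5:**
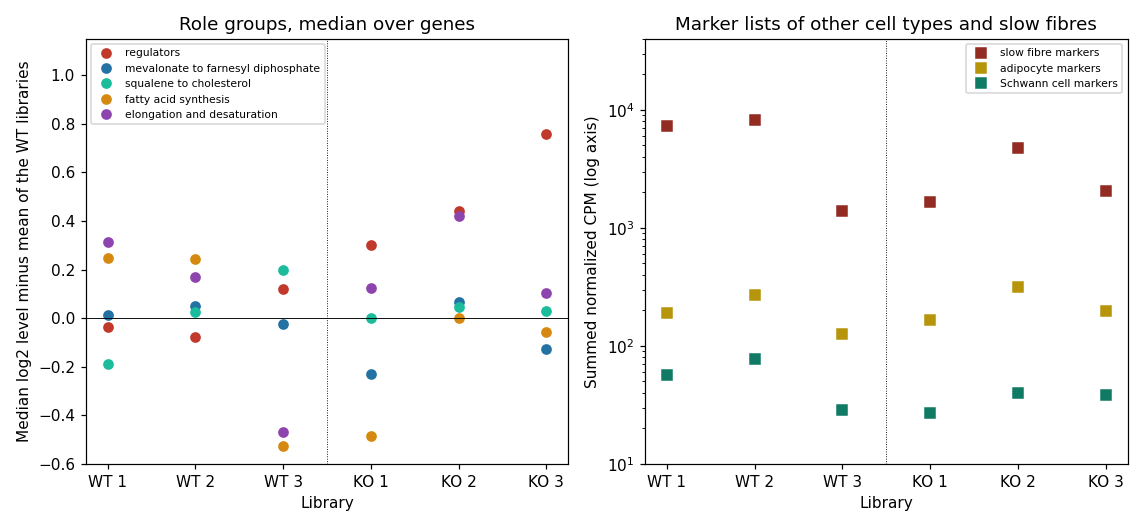
Left, median over the genes of each role group of the log2 CPM minus the mean log2 CPM of the WT libraries, in each library, with *Lpin1* left out. Right, summed CPM of slow-fiber, adipocyte and Schwann cell markers on a log axis; WT 3 is low in the fatty acid groups on the left and in all 3 marker lists on the right, and KO marks libraries labelled Sirt6 KO.

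Another 43 genes of the same pathways were examined beside the 31, chosen as textbook members of sterol handling and of fatty acid and glycerolipid synthesis, and 41 of them were tested. Of these, 5 passed the test (12.2%, where the share over all genes was 16.2%), 4 higher and 1 lower, with a median log2 fold change of -0.07. *Nr1h2*, which codes for the oxysterol receptor LXRβ, was at 24.0 to 29.4 CPM in WT and at 45.7 to 51.7 CPM in KO (log2 fold change 0.84, SE 0.115, adjusted p = 0.0131 by edgeR). *Mylip*, whose product marks the LDL receptor for degradation, was at 7.94 to 11.0 CPM in WT and at 13.4 to 18.8 CPM in KO. Its log2 fold change was 0.81 (SE 0.178, adjusted p = 0.0272 by edgeR). The groups overlapped in neither gene.

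In the fatty acid list, *Mcat*, of mitochondrial fatty acid synthesis, was at 13.6 to 17.3 CPM in WT and at 20.2 to 24.3 CPM in KO (log2 fold change 0.54, SE 0.135, adjusted p = 0.0388 by edgeR). *Hacd1*, a dehydratase of very long chain elongation that is prominent in muscle, was at 43.5 to 59.8 CPM in WT and at 28.1 to 31.8 CPM in KO (log2 fold change -0.73, SE 0.139, adjusted p = 0.0195 by edgeR), the one gene of the 41 that passed the test in the lower direction. Over the 15 alternatives *Nr1h2* was called in 13, *Mylip* in 11, *Hacd1* in 10 and *Mcat* in 7.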

How the data were processed

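Poly-A RNA-seq of gastrocnemius muscle was available for 6 mice, 3 per group, grouped by the sample labels. The labels name a stranded TruSeq kit and the methods another TruSeq kit. The submitters' processing notes name bcl2fastq 2.20.0, FastQC 0.11.7, HISAT2 2.1.0, Bowtie2 2.3.4.1 and StringTie 2.1.3b on build mm10, whereas the reporting summary names STAR. The authors deposited 3 units side by side: unnormalized read counts (whole numbers), FPKM (divided by gene length and library size) and TPM (length-corrected, with nearly the same sum in every library). Per the methods, expression was compared as log2(FPKM + 1) after quantile normalization, with significance from the fold change; the legend of the volcano plot instead names a Wald test in DESeq2. All are in 1 table of 24532 genes, of which 7342 had no count.

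Counts were tested in R 4.3.3 with edgeR 4.0.16: filterByExpr (13801 genes kept), TMM scaling, a quasi-likelihood fit on the group, and Benjamini-Hochberg adjustment over all genes tested at 0.05. The common biological coefficient of variation was 24.1%. CPM are TMM-scaled, SDs are over 3 libraries, and standard errors and 95% intervals come from the quasi-likelihood test. TPM values were used to compare levels between genes. DESeq2 1.42.0 and limma 3.58.1 (the latter on quantile-normalized log2(FPKM + 1) or log2(FPKM + 0.1)), other scaling and filters, a replicate block, removal of a GC trend (lowess, span 0.3, GENCODE M21 transcripts) and leaving out each library were the 15 alternatives. The script was tested on simulated data. Within groups no library was a duplicate of another: chi-square per degree of freedom between libraries of a group was 44.0 to 309. Pairs across groups were not checked.

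The 31 genes and all lists were chosen with earlier results of these data known. Values in every library are given for members that passed the test, for those with an unadjusted p under 0.05 and no overlap between groups, and for *Srebf1* and *Srebf2*; per-library values of other members were added after they were seen. Of the other pathway genes, those past the threshold are named, apart from what is not reported here. The marker lists held muscle fiber, slow fiber, adipocyte, Schwann cell, macrophage, fibroblast, endothelial and erythroid genes; outside the Schwann cell list, no marker passed the test.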

Additional observations from a re-analysis of the deposited data

How the results depend on the processing

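With 3 animals per group and totals from 44845763 to 63016899 counts, calls varied with the libraries fitted. A fit without 1 library also has fewer animals, and the part of this in the calls was not tested. Leaving out each library in turn gave 6 to 2363 genes called higher and 2 to 2219 called lower, from 1084 and 1158. Among the 31 genes it gave 0 (without WT 2, KO 1 or KO 3) to 7 (without WT 3) called, from 2, among the other pathway genes 0 (without KO 1 or KO 3) to 15 (without WT 3), from 5, a median log2 fold change of the 31 genes of 0.058 to 0.17, and a log2 fold change of *Sirt6* of 1.37 to 1.55, which was not called without KO 1 (adjusted p = 0.0606) or KO 3 (0.065). DESeq2 called 1730 genes higher and 1801 lower, 5 of the 31 (*Srebf1*, *Srebf2*, *Scap*, *Hsd17b7*, *Elovl5*) and 9 other pathway genes. With the GC trend removed the counts were 468, 499, 1 (*Pmvk*) and 2. The median of the 31 genes was 0.09, and 0.14 with limma on log2(FPKM + 0.1), with the FPKM filter (27 of the 31 genes kept) and with the replicate block. The replicate block called 904 genes higher and 1018 lower, 2 of the 31 (*Srebf2* and *Elovl5*; *Scap* had an adjusted p of 0.0556) and 3 other pathway genes. Libraries with the same number share only that number: their deviations correlated at -0.106, 0.26 and 0.161, and not every library correlated best with its own number. Signs turned for members far from the threshold: with the GC trend removed *Hmgcs1* was at 0.051, *Idi1* at 0.055, *Sc5d* at 0.026 and *Fasn* at -0.14, and with a library left out *Sqle* ran from -0.45 to 0.086, *Lss* from -0.12 to 0.32 and *Fasn* from -0.17 to 0.52. Of 461 fits of a member under an alternative, 431 kept direction and side of the threshold, 11 lost and 10 gained a call, and 9 turned sign. The cause was not tested.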
